A study of Mus musculus with 24 samples.

Results

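Dual-specificity MAP kinase phosphatases are the enzymes that switch MAP kinases off. The 10 genes Dusp1, Dusp2, Dusp3, Dusp4, Dusp5, Dusp6, Dusp7, Dusp8, Dusp14 and Dusp16 were taken by their names in the array files, with every probe of each. The array measured 9 of them with 13 probes, out of 28305 gene names in all, and no probe carried the name Dusp5. All 9 measured genes passed the filter on dim probes, as did 15297 gene names of the whole array.

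The arrays were made from RAW264.7 cells, a mouse macrophage-like line, made to overexpress Tbc1d23 or, as the control, the bacterial enzyme chloramphenicol acetyltransferase (CAT). Both kinds of cell were grown in G418, and each was either left without LPS (0 h) or exposed to 20 ng/ml LPS, an outer membrane component of Gram-negative bacteria sensed through TLR4, for 1, 3 or 5 h. This gave 8 groups of 3 one-colour Agilent arrays, called biological replicates by the submitters. Whether the replicates came from separate cultures, whether each line was a clone or a pool, and which promoter drove the constructs are not given in the sources used here. The p-values thus reflect the spread among these arrays, which may be technical.

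The overexpressed gene did not bear out the label at the level of its own probes. Tbc1d23 has 4 probes on the array and 2 passed the filter. At 0 h the brighter one differed between the lines by 0.03 ± 0.21 (log2, SE, adjusted p = 0.933) and the other by 0.35 ± 0.18 (adjusted p = 0.114). The other was called higher at 3 h, by 1.00 ± 0.18 (adjusted p = 0.000113), and at 5 h, by 0.49 ± 0.18 (adjusted p = 0.0261). The sources used here do not give the place of these probes relative to the overexpressed sequence. The cells are therefore called Tbc1d23-labelled cells, and every direction between the lines rests on that label.

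The share of probes well above background ranged from 42.2 to 69.7% over the arrays, both ends of it resting Tbc1d23-labelled arrays (replicate 2 and replicate 1), and replicates of a group correlated at 0.967 to 0.993 over all gene names. Of 10 macrophage markers, 9 were well above background on all 3 arrays of each of the 8 groups. Other lists moved with the line at rest: the summed signal of 5 T cell markers was 0.591 to 0.998 times the array's 75th percentile in CAT cells and 2.88 to 3.24 times in Tbc1d23-labelled cells, and that of 5 B cell markers 0.216 to 0.455 and 0.881 to 1.69 times. Of the macrophage list 2 genes were called higher and 4 lower in Tbc1d23-labelled cells at 0 h, among them Cx3cr1 by -3.80 ± 0.15 and Adgre1 by -2.67 ± 0.20. None of the epithelial markers Epcam, Krt8, Krt18 and Cdh1 was well above background on all 3 arrays of any group, and none was tested. At 0 h each was above it on no CAT array and on at least 1 Tbc1d23-labelled array. Their sums were then 0.0529 to 0.0744 and 0.106 to 0.602. At 1 and 3 h Epcam, Krt18 and Cdh1 were above it on no Tbc1d23-labelled array. The part of these shifts in the results below was not tested.

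MAP kinases (ERK, JNK and p38) are activated by phosphorylation of a threonine and a tyrosine in the activation loop, and the dual-specificity phosphatases remove both phosphates. The inducible nuclear enzymes (DUSP1, DUSP2, DUSP4 and DUSP5) are products of early response genes, DUSP6 and DUSP7 are cytoplasmic and prefer ERK, and DUSP8 and DUSP16 act mainly on JNK and p38. DUSP3 and DUSP14 are small enzymes that lack the MAP kinase-binding domain of the others. In macrophages LPS activates all the MAP kinase branches, and DUSP1 is best known there for limiting p38 activity and cytokine output.

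A value here is the log2 of a probe's background-subtracted signal minus the log2 of the array's 75th percentile, so 0 is that percentile and a difference of 1 is a 2-fold difference. A gene was called where limma's adjusted p was under 0.05. Each gene is given by its brightest probe unless another is named, and levels are compared only within a probe. RNA came from whole cultures, so fewer cells with a transcript and less transcript per cell cannot be told apart.

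After 1 h of LPS, CAT cells changed 7 of the 9 phosphatases. Dusp1, Dusp2, Dusp4, Dusp8 and Dusp16 rose, and Dusp6 and Dusp7 fell. At that time 7.58% of all gene names were called in either direction and 3.63% were called higher. The median log2 difference was 1.87 over the 9 phosphatases and -0.10 over all gene names. At 3 h 6 of 9 were called, 5 higher and Dusp7 lower, against 34.9% of all gene names. At 5 h 8 of 9 were called, 6 higher with Dusp6 now among them, and Dusp7 and Dusp14 lower, against 41.7%. The Dusp8 call at 5 h compares groups with no array well above background. The probe of Dusp8 passed the filter on dim probes only through groups with LPS. Its place in these and later counts of changes with LPS is thus not independent of the filter. Over the 3 times together 6 of 9 were called higher than at 0 h at least once, where 21.5% of all gene names were. All 3 comparisons use the same 0 h arrays.

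In Tbc1d23-labelled cells 4 of 9 were called at 1 h, all of them higher (Dusp1, Dusp2, Dusp8 and Dusp16), against 1.65% of all gene names called in either direction and 0.837% called higher. At 3 h 5 of 9 were called, with Dusp2, Dusp4, Dusp8 and Dusp16 higher and Dusp7 lower, against 6.79%. At 5 h 3 of 9 were called, with Dusp2 and Dusp16 higher and Dusp7 lower, against 6.34%. With each slide, which held the 4 times of 1 replicate of 1 line, as a block, 6 of 9 were called at 5 h. That fit called 2377 of 15297 gene names then, in place of 970. Called higher at least once were 5 of 9, against 4.28% of all gene names.

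**Figure D1:**
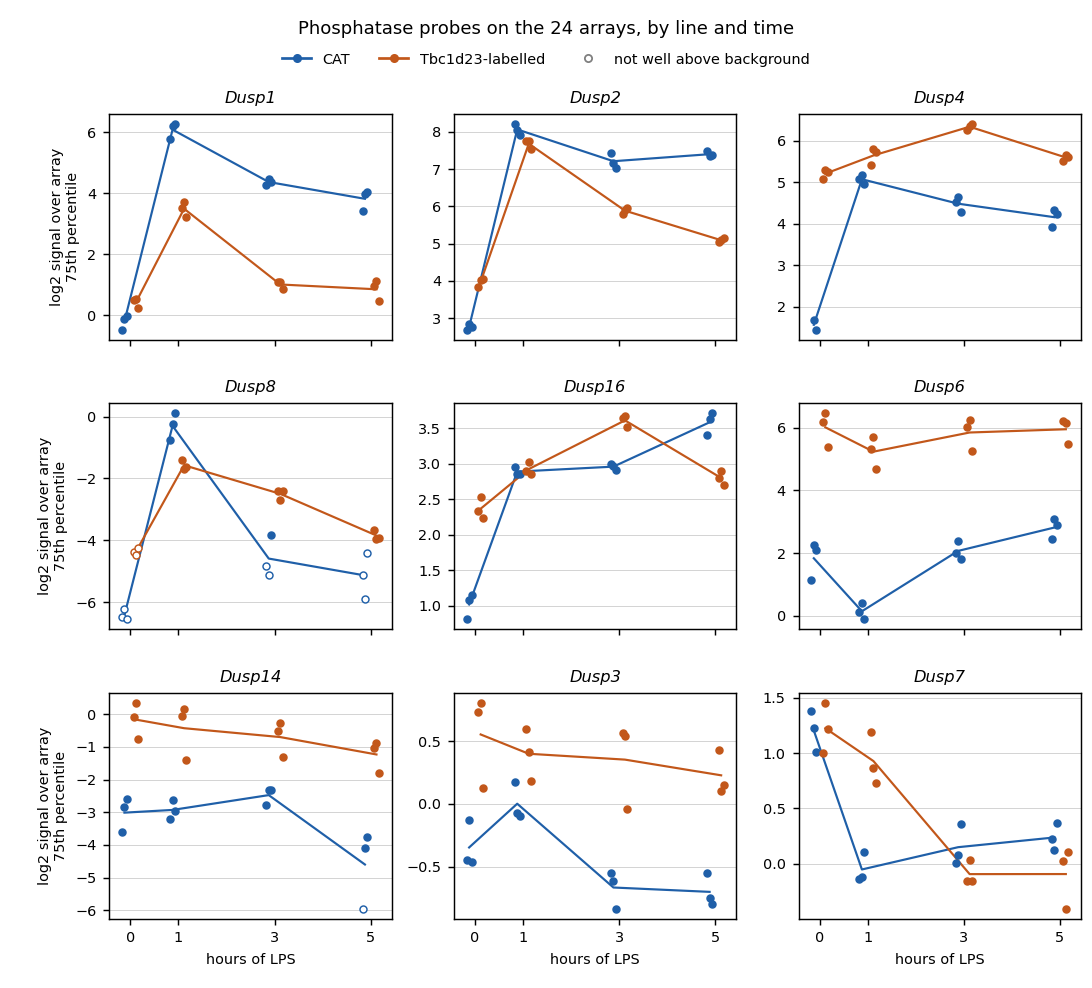
Log2 signal over the array's 75th percentile (vertical axis) against hours of LPS (horizontal axis) for the brightest probe of each of the 9 phosphatases. Points are single arrays, lines join group means, blue is CAT and orange Tbc1d23-labelled, and open points are not well above background. Dusp1 rises at 1 h in both lines and is higher in CAT cells at each time of LPS, while the Dusp6 values of Tbc1d23-labelled cells (4.69 to 6.45) lie above all CAT values (-0.10 to 3.10).

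Dusp1, the nuclear phosphatase that acts on p38, JNK and ERK, gave the largest change with LPS among the phosphatases measured above background in both groups compared. Its probe is listed at chr17:26642526-26642536 (mm9, minus strand), the only stretch the file gives. The CAT arrays read -0.47, -0.13 and -0.01 at 0 h, 5.78, 6.21 and 6.28 at 1 h, 4.28, 4.46 and 4.37 at 3 h, and 3.42, 3.99 and 4.05 at 5 h. All arrays with LPS were far above all arrays without it. The rise was 78.3-fold at 1 h (6.29 ± 0.20, adjusted p = 1.67e-14), 23.8-fold at 3 h and 16.3-fold at 5 h. Between 1 and 3 h the level fell by 1.72 ± 0.20 on the log2 scale (adjusted p = 1.29e-06). From 3 to 5 h the difference was -0.55 ± 0.20 and not called (adjusted p = 0.0697). It was called with the slide as a block (adjusted p = 0.000397) and without Tbc1d23-labelled replicate 3 at 5 h (adjusted p = 0.0434).

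Tbc1d23-labelled cells carried more Dusp1 before LPS and less of it afterwards. Their arrays read 0.50, 0.53 and 0.25 at 0 h, 3.53, 3.71 and 3.24 at 1 h, 1.08, 1.1 and 0.86 at 3 h, and 0.97, 1.13 and 0.46 at 5 h. The rise at 1 h was 8.38-fold (3.07 ± 0.20, adjusted p = 3.57e-09). The differences from 0 h were 0.58 ± 0.20 at 3 h (adjusted p = 0.0974) and 0.42 ± 0.20 at 5 h (adjusted p = 0.309), neither of them called. Both were called with the slide as a block (adjusted p = 0.000549 and 0.00607). At 0 h the line difference was 0.63 ± 0.20 (adjusted p = 0.0138). That call was lost without CAT replicate 1 (0.50, adjusted p = 0.0762), within the 1 slide run that held both lines (0.45, adjusted p = 0.233) and with arrays scaled by their median (0.09, adjusted p = 0.868). In that slide run each Tbc1d23-labelled group has 1 array, which the fit assumes to vary like the CAT groups, so here and below its p-values rest on the CAT spread.

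The promoter of Dusp1 and those of 3 other LPS-responsive phosphatases are shown because all 4 transcripts rose at 1 h in CAT cells. Each line is the 250 bases before the annotated RefSeq start in GRCm38.p6, on the gene's strand, with matches to a cyclic AMP response element (CRE, TGACGTCA) or its shorter core (TGACG), on either strand, in capitals. Matches to AP-1 (TGANTCA), the NF-kB consensus and the CArG consensus of serum response factor were searched in the same way. RefSeq promoters were matched by symbol for 9 of the 10 genes, all but Dusp4.
Dusp1, chr17:26508473-26508722, minus strand: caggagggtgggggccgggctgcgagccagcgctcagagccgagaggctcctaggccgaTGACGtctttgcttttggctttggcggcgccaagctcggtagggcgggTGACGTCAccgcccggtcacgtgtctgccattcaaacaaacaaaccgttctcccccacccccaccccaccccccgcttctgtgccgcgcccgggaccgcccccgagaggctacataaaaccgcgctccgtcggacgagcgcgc
Dusp8, chr7:142095285-142095534, minus strand: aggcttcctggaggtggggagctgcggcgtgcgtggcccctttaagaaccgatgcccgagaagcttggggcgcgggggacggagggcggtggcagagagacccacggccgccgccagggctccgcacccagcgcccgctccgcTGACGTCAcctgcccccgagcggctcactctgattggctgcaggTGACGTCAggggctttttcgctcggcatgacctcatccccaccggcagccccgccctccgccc
Dusp16, chr6:134792629-134792878, minus strand: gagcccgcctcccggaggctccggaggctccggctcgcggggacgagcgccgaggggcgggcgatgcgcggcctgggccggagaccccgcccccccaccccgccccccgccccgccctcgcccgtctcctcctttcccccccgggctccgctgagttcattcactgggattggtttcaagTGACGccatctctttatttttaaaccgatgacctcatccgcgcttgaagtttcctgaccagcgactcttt
Dusp2, chr2:127335909-127336158, plus strand: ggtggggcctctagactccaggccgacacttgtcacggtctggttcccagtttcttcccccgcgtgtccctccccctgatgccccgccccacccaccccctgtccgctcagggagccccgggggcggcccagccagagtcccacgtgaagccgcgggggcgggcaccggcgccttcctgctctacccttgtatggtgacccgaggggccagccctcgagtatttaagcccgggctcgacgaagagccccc

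The full CRE stood in the windows of Dusp1, from 143 to 136 bases before the start, and of Dusp8, at a pair of places that end 100 and 56 bases before it. Of 32851 promoter windows of the same length in the RefSeq table, 1.55% held it. The core, which also lies inside each full CRE, was present for 4 of the 9 genes (Dusp1, Dusp5, Dusp8 and Dusp16), against 17.8% of all windows. Dusp16 held it once, from 70 to 66 bases before the start. No window of the 9 held the AP-1 motif or the NF-kB consensus, which 6.75% and 7.25% of all windows held, and the CArG consensus was found for Dusp5, against 1.47%. These matches describe letters in these windows.

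Dusp2, a nuclear phosphatase of immune cells, changed as early as Dusp1 but fell back less in CAT cells. Its probe lies at chr2:127163930-127163989 (mm9, plus strand). The CAT arrays read 2.69, 2.83 and 2.76 at 0 h, 8.21, 8.06 and 7.92 at 1 h, 7.43, 7.17 and 7.03 at 3 h, and 7.48, 7.35 and 7.37 at 5 h. The rise was 39.4-fold at 1 h (5.30 ± 0.11, adjusted p = 3.97e-17), 21.8-fold at 3 h and 24.9-fold at 5 h. Tbc1d23-labelled arrays read 3.82, 4.03 and 4.06 at 0 h, 7.74, 7.76 and 7.54 at 1 h, 5.79, 5.89 and 5.96 at 3 h, and 5.04, 5.09 and 5.14 at 5 h. Each of these groups was separate from the next in level, and the level fell at each step after 1 h. The rise in this line was 13.0-fold at 1 h, 3.76-fold at 3 h and 2.17-fold at 5 h (1.12 ± 0.11, adjusted p = 1.12e-06). Between 1 and 3 h Dusp2 fell by 0.85 ± 0.11 in CAT cells (adjusted p = 4.8e-06) and by 1.80 ± 0.11 in Tbc1d23-labelled cells (adjusted p = 3.25e-09).

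Dusp4, a nuclear phosphatase of ERK and JNK, was already high in resting Tbc1d23-labelled cells. Its brighter probe lies at chr8:35884806-35884865 (mm9, plus strand). One CAT spot at 0 h was an outlier and was left out, so that group has 2 arrays. The CAT arrays read 1.67 and 1.45 at 0 h, 5.08, 5.17 and 4.97 at 1 h, 4.52, 4.65 and 4.28 at 3 h, and 3.93, 4.32 and 4.22 at 5 h. Tbc1d23-labelled arrays read 5.07, 5.29 and 5.26 at 0 h, 5.42, 5.79 and 5.73 at 1 h, 6.25, 6.36 and 6.41 at 3 h, and 5.52, 5.66 and 5.61 at 5 h. The resting Tbc1d23-labelled arrays overlapped the CAT arrays at 1 h of LPS (4.97 to 5.17) with this probe, but not with the second (5.15 to 5.39 against 3.06 to 3.32). In CAT cells the rise was 11.4-fold at 1 h (3.51 ± 0.14, adjusted p = 3.26e-12), 7.58-fold at 3 h and 6.05-fold at 5 h.

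In Tbc1d23-labelled cells Dusp4 rose 2.19-fold at 3 h (1.13 ± 0.13, adjusted p = 9.25e-06). The differences at 1 h (0.44 ± 0.13, adjusted p = 0.133) and at 5 h (0.39 ± 0.13, adjusted p = 0.0944) were not called, although no array at either time was below an array at 0 h. With the slide as a block both were called (adjusted p = 0.00939 and 0.00655). The second probe, at chr8:35882045-35882104 (mm9), gave 2.85 ± 0.12 for CAT cells at 1 h. In Tbc1d23-labelled cells it gave 0.16 ± 0.12 at 1 h (adjusted p = 0.958), 0.95 ± 0.12 at 3 h (adjusted p = 2.06e-05) and 0.06 ± 0.12 at 5 h (adjusted p = 0.971). Both probes thus placed the highest level of Tbc1d23-labelled cells at 3 h and that of CAT cells at 1 h.

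Dusp8, a phosphatase of JNK and p38, was a brief and faint transcript. Its probe, at chr7:149267534-149267593 (mm9, minus strand), was well above background on 13 of 24 arrays. The CAT arrays at 0 h read -6.48, -6.23 and -6.54, none of them well above background. At 1 h they read -0.76, -0.23 and 0.10, all well above it. The rise in CAT cells was at least 19.7-fold (adjusted p = 4.05e-11), taken against the lowest signal that still counts as above background on each array. At 3 h only the CAT array at -3.82 was above background, and at 5 h none was.

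In Tbc1d23-labelled cells Dusp8 was below background at 0 h (-4.37, -4.48 and -4.24) and above it on all 9 arrays with LPS. These read -1.39, -1.69 and -1.64 at 1 h, -2.40, -2.69 and -2.41 at 3 h, and -3.66, -3.95 and -3.93 at 5 h. The rise was at least 5.36-fold at 1 h (adjusted p = 1.45e-05) and at least 2.82-fold at 3 h (adjusted p = 0.00068). Dusp8 was called at 0 h between the lines, but both groups were below background and no fold is given. With normexp background correction that call was lost (0.08, adjusted p = 0.708), as were the rise of Tbc1d23-labelled cells at 3 h (0.49, adjusted p = 0.0606) and the line difference at 3 h (0.25, adjusted p = 0.169). The same held for the calls in CAT cells at 3 h (0.31, adjusted p = 0.123) and at 5 h (0.27, adjusted p = 0.168).

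Dusp16, a phosphatase that acts on JNK and p38, had 3 probes. Its brightest, at chr6:134665656-134665696 (mm9, minus strand), read 0.81, 1.09 and 1.15 on the CAT arrays at 0 h, 2.95, 2.86 and 2.86 at 1 h, 3.00, 2.97 and 2.91 at 3 h, and 3.41, 3.64 and 3.71 at 5 h. The rise was 3.66-fold at 1 h (1.87 ± 0.11, adjusted p = 1.86e-10) and 5.92-fold at 5 h. From 3 to 5 h it rose a further 1.54-fold (adjusted p = 0.000349). That call was lost with the mean of the 3 probes (0.41, adjusted p = 0.128) and with array-median scaling (0.61, adjusted p = 0.54). Tbc1d23-labelled arrays read 2.34, 2.53 and 2.24 at 0 h, 2.90, 3.02 and 2.85 at 1 h, 3.64, 3.68 and 3.51 at 3 h, and 2.80, 2.90 and 2.70 at 5 h. Here the level was highest at 3 h (2.37-fold over 0 h, adjusted p = 1.59e-07) and fell by 0.81 ± 0.11 between 3 and 5 h (adjusted p = 0.000337). The call of this fall was lost with the mean of the 3 probes (-0.35, adjusted p = 0.734) and with array-median scaling (-1.10, adjusted p = 0.334). The rise at 5 h (0.43 ± 0.11, adjusted p = 0.0169) was no longer called without Tbc1d23-labelled 0 h replicate 1 (0.42, adjusted p = 0.0578) or replicate 3 (0.37, adjusted p = 0.0879), or without 5 h replicate 2 (0.38, adjusted p = 0.0915). That call was also lost with the mean of the 3 probes (0.35, adjusted p = 0.333) and with array-median scaling (0.69, adjusted p = 0.7).

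The probes of Dusp16 did not share 1 time course. The probe at chr6:134687549-134687608 (mm9) was highest at 1 h in both lines, with group means of -1.66 in CAT and -0.64 in Tbc1d23-labelled cells, and its difference from 0 h in Tbc1d23-labelled cells at 3 h was -0.01 ± 0.27 (adjusted p = 0.998). In CAT cells it fell by 1.05 ± 0.27 from 1 to 3 h (adjusted p = 0.0056), where the brightest probe differed by 0.07. The remaining one, at chr6:134668003-134668062 (mm9), was not well above background on any CAT array at 0 h and rose at least 3.41-fold there at 1 h (adjusted p = 0.00139). All 3 probes were called higher with LPS in CAT cells at 1, 3 and 5 h.

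**Figure D2:**
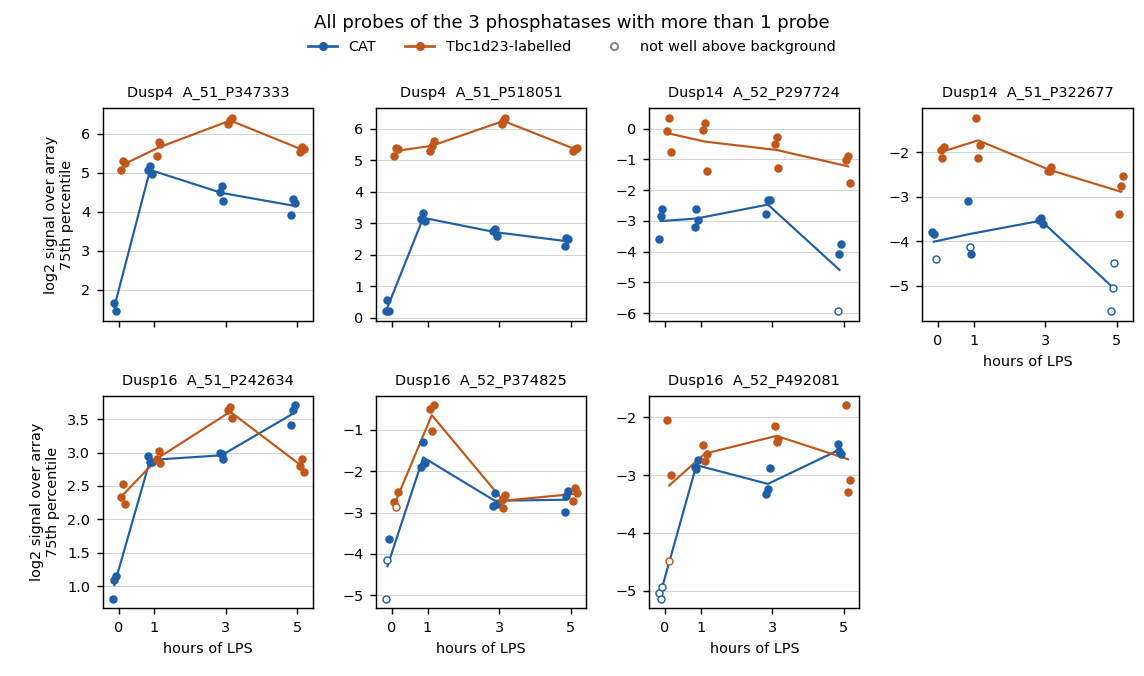
Log2 signal over the array's 75th percentile (vertical axes) against hours of LPS (horizontal axes) for all 7 probes of Dusp4, Dusp14 and Dusp16, with points for arrays, lines for group means and open points not well above background. The probes of Dusp4 and of Dusp14 keep 1 order of the lines, while the second Dusp16 probe has its highest means at 1 h (-1.66 and -0.64) and the first has them at 5 h in CAT cells (3.58) and at 3 h in Tbc1d23-labelled cells (3.61).

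Dusp6, the cytoplasmic phosphatase of ERK, did the opposite of the early group at 1 h. Its probe lies at chr10:98729985-98730044 (mm9, plus strand). The CAT arrays read 1.15, 2.27 and 2.09 at 0 h, 0.12, 0.42 and -0.10 at 1 h, 2.02, 2.37 and 1.82 at 3 h, and 2.44, 3.10 and 2.90 at 5 h. Its level fell by 1.69 ± 0.35 at 1 h (adjusted p = 0.00334) and rose by 1.92 ± 0.35 from 1 to 3 h (adjusted p = 0.000278). The rise over 0 h at 5 h (0.98 ± 0.35, adjusted p = 0.0318) was lost without CAT 0 h replicate 1 (0.63, adjusted p = 0.194) or without CAT 5 h replicate 2 (0.83, adjusted p = 0.117) or replicate 3 (0.93, adjusted p = 0.0827), with array-median scaling (0.94, adjusted p = 0.127), with no filter (adjusted p = 0.0642) and with normexp (0.85, adjusted p = 0.0681). The difference from 3 to 5 h was 0.74 ± 0.35 (adjusted p = 0.199), and was called with the slide as a block (adjusted p = 0.00383).

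Tbc1d23-labelled arrays read 6.18, 6.45 and 5.39 for Dusp6 at 0 h, 5.32, 5.68 and 4.69 at 1 h, 6.03, 6.23 and 5.27 at 3 h, and 6.21, 6.16 and 5.47 at 5 h. Replicate 3 was the lowest at every time. This replicate lay in the slide run of the CAT arrays, and replicates 1 and 2 in another. The difference at 1 h was -0.78 ± 0.35 and not called (adjusted p = 0.599), while it was called with the slide as a block (adjusted p = 0.0168), as was that from 1 to 3 h (0.61, adjusted p = 0.0255). The promoter of Dusp6 is shown as well. None of the motifs searched was found in it or in that of Dusp2 above, so neither has capitals.
Dusp6, chr10:99262981-99263230, plus strand: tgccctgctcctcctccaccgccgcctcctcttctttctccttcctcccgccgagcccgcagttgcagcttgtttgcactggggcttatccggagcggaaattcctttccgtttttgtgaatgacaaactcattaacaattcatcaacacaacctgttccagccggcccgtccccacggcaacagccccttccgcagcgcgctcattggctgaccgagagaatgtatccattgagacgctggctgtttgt

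Dusp7, the close relative of Dusp6, fell with LPS in both lines, but at different times. Its probe lies at chr9:106277697-106277756 (mm9, plus strand). The CAT arrays read 1.38, 1.22 and 1.01 at 0 h, -0.14, -0.12 and 0.11 at 1 h, 0.01, 0.08 and 0.36 at 3 h, and 0.22, 0.13 and 0.37 at 5 h. Tbc1d23-labelled arrays read 1.00, 1.45 and 1.22 at 0 h, 1.19, 0.86 and 0.73 at 1 h, -0.16, 0.03 and -0.15 at 3 h, and 0.02, -0.40 and 0.11 at 5 h. CAT cells were low from 1 h on, and Tbc1d23-labelled cells from 3 h on. The fall at 1 h was 1.25 ± 0.16 on the log2 scale in CAT cells (adjusted p = 1.6e-05), and in Tbc1d23-labelled cells the difference was -0.30 ± 0.16 (adjusted p = 0.802). At 3 h the level had fallen by 1.05 ± 0.16 in CAT cells and by 1.32 ± 0.16 in Tbc1d23-labelled cells. With arrays scaled by their median, the call in CAT cells at 1 h was lost (-1.12, adjusted p = 0.115). Those in Tbc1d23-labelled cells at 3 h (-0.77, adjusted p = 0.237) and 5 h (-1.06, adjusted p = 0.22) were lost too. The calls in CAT cells at 3 and 5 h were kept.

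Dusp3 and Dusp14, the small phosphatases, were not called higher with LPS in either line. For Dusp3 (probe at chr11:101835523-101835582, mm9, minus strand) the CAT group means were -0.35, 0.00, -0.67 and -0.70 at 0, 1, 3 and 5 h, and those of Tbc1d23-labelled cells 0.56, 0.40, 0.35 and 0.23. It fell by 0.67 ± 0.19 between 1 and 3 h in CAT cells (adjusted p = 0.0105). The CAT differences from 0 h at 3 h (-0.32 ± 0.19, adjusted p = 0.228) and at 5 h (-0.35 ± 0.19, adjusted p = 0.151) were called with the slide as a block (adjusted p = 0.0417 and 0.022).

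The brighter Dusp14 probe lies at chr11:83861614-83861673 (mm9, minus strand). It read -3.59, -2.84 and -2.61 on the CAT arrays at 0 h and -5.94, -4.08 and -3.76 at 5 h, where the array at -5.94 was not well above background. The fall at 5 h (1.59 ± 0.50 on the log2 scale, adjusted p = 0.0155) was lost without that array (-0.91, adjusted p = 0.126), without CAT 0 h replicate 2 (-1.50, adjusted p = 0.05) or replicate 3 (-1.38, adjusted p = 0.0659), and with normexp background correction (-0.22, adjusted p = 0.425). Without that array the fall from 3 to 5 h of 2.12 became a difference of -1.45 (adjusted p = 0.0401), and with normexp it was -0.41 (adjusted p = 0.227). The second probe, at chr11:83862291-83862350 (mm9), was also called lower in CAT cells at 5 h, by at least 1.32-fold (adjusted p = 0.0122). In Tbc1d23-labelled cells the difference at 5 h was -1.07 ± 0.50 with the brighter probe (adjusted p = 0.319), called with the slide as a block (adjusted p = 0.0128).

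**Figure D3:**
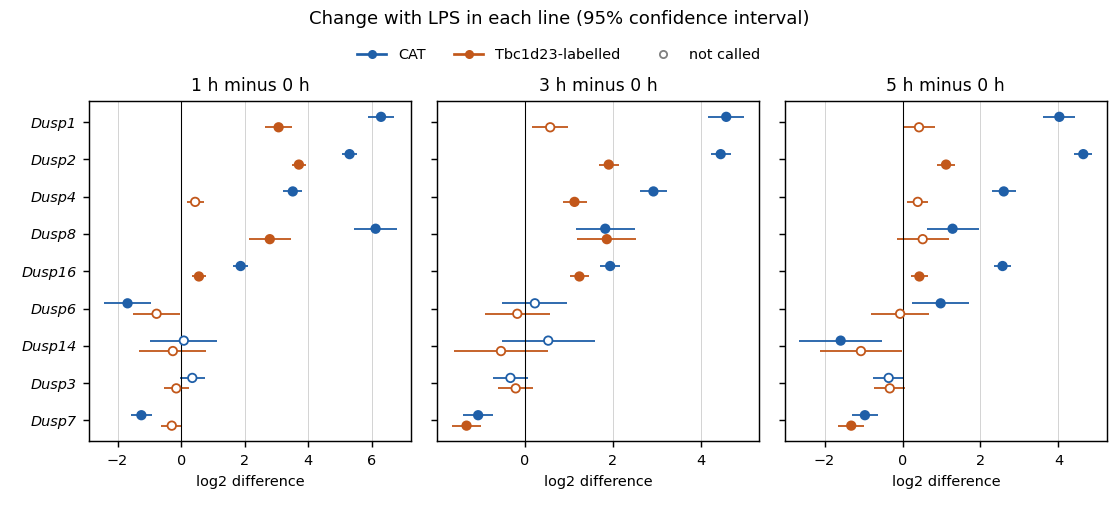
Log2 difference from 0 h (horizontal axes) for each phosphatase at 1, 3 and 5 h of LPS, in CAT cells (blue) and Tbc1d23-labelled cells (orange), with 95% confidence intervals and open points where the difference was not called. At 1 h the CAT differences of Dusp1 (6.29), Dusp2 (5.30), Dusp4 (3.51) and Dusp16 (1.87) lie to the right of those of Tbc1d23-labelled cells (3.07, 3.71, 0.44 and 0.56).

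Between successive times with LPS, CAT cells called 6 of 9 phosphatases from 1 to 3 h, with Dusp1, Dusp2, Dusp3, Dusp4 and Dusp8 lower and Dusp6 higher, against 29.4% of all gene names. From 3 to 5 h 2 of 9 were called, Dusp16 higher and Dusp14 lower, against 15.6%. With the slide as a block 5 of 9 were called, Dusp4 among the added ones (-0.33, adjusted p = 0.0238). That fit called 4482 of 15297 gene names, in place of 2385. In Tbc1d23-labelled cells 5 of 9 were called from 1 to 3 h, with Dusp1, Dusp2 and Dusp7 lower and Dusp4 and Dusp16 higher, against 5.3%. From 3 to 5 h 3 of 9 were called, Dusp2, Dusp4 and Dusp16, all lower, against 0.889%. For Dusp8 in this line the differences were -0.92 ± 0.32 from 1 to 3 h (adjusted p = 0.118) and -1.35 ± 0.32 from 3 to 5 h (adjusted p = 0.0535). With the slide as a block both were called (adjusted p = 0.0244 and 0.00781). The second was also called without any 1 of 5 CAT arrays, with the same difference and adjusted p from 0.0166 to 0.0472: 1 h replicate 1, 3 h replicate 2 or 3, and 5 h replicate 2 or 3.

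Before any LPS, 8 of the 9 phosphatases were called higher in Tbc1d23-labelled cells, all but Dusp7. For Dusp8, one of the 8, no resting array of either line was well above background, and the call was lost with normexp (0.08, adjusted p = 0.708). At 0 h 45.3% of all gene names were called between the lines and 25.1% were called higher. The median log2 difference was 1.35 over the phosphatases and 0.09 over all gene names. The largest differences were those of Dusp6 (4.17 ± 0.35, 18.0-fold, adjusted p = 2.13e-08), Dusp4 (3.65 ± 0.14, 12.5-fold, adjusted p = 1.63e-12) and Dusp14 (2.85 ± 0.50, 7.19-fold, adjusted p = 0.000143). Smaller differences were found for Dusp16 (1.35 ± 0.11), Dusp2 (1.21 ± 0.11), Dusp3 (0.90 ± 0.19) and Dusp1 (0.63 ± 0.20). For Dusp7 the difference was 0.02 with a 95% confidence interval from -0.31 to 0.35. No array of one line overlapped those of the other for the 8 genes called, although for Dusp8 none of these arrays was well above background. How many of all gene names were separate in this way was not counted. Without Tbc1d23-labelled replicate 1 or replicate 2, the arrays with the most and the fewest probes above background, 8 were called as well.

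Scaling and slide run bore on these resting differences unequally. With arrays scaled by their median, the median of all gene names moved from 0.09 to -0.45, and 879 of 4744 called gene names were higher in place of 3840 of 6927. The deposited values gave 3282 higher of 7476 called. Of the phosphatases, array-median scaling left Dusp4 (3.18), Dusp6 (3.63), Dusp8 and Dusp14 (2.30) called higher. Dusp1, Dusp2 (0.67, adjusted p = 0.12), Dusp3 (0.36, adjusted p = 0.433) and Dusp16 (0.80, adjusted p = 0.0567) were not. Within the slide run that held both lines, with 1 Tbc1d23-labelled array a group, the differences were 3.55 for Dusp6 (adjusted p = 0.000145), 3.70 for Dusp4, 2.26 for Dusp14 (adjusted p = 0.0299), 1.30 for Dusp2 and 1.22 for Dusp16. There Dusp3 (0.47, adjusted p = 0.0759) and Dusp1 were not called.

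The other probes of Dusp4, Dusp14 and Dusp16 were also higher in resting Tbc1d23-labelled cells. The second Dusp4 probe differed by 4.97 ± 0.12, from group means of 0.33 in CAT and 5.30 in Tbc1d23-labelled cells. The second Dusp14 probe differed by 2.02 ± 0.31. The further Dusp16 probes were called higher as well, the one at chr6:134668003-134668062 by at least 2.68-fold.

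Dusp1 and Dusp2 had large changes with LPS and small resting line differences, and Dusp6 and Dusp14 large resting differences without a rise at 1 h. Both comparisons use the CAT arrays at 0 h, so their values are only set side by side. For Dusp1 the change with LPS at 1 h in CAT cells was 6.29 and the resting line difference 0.63, and for Dusp2 these were 5.30 and 1.21. For Dusp6 they were -1.69 and 4.17, and for Dusp14 0.08 and 2.85. Dusp4 was high on both, with 3.51 and 3.65. Dusp16 gave 1.87 and 1.35, Dusp3 0.35 and 0.90, and Dusp7 -1.25 and 0.02.

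With LPS present, Dusp1 and Dusp2 were lower in Tbc1d23-labelled than in CAT cells at each time, although both were higher at rest. At 1 h 7 of 9 phosphatases were called between the lines, against 45.8% of all gene names. Dusp4, Dusp6, Dusp7 and Dusp14 were higher and Dusp1, Dusp2 and Dusp8 lower. At 3 h 8 of 9 were called, against 51.1%, with Dusp1 and Dusp2 the lower ones. At 5 h 8 of 9 were called, against 53.6%, with Dusp1, Dusp2 and Dusp16 the lower ones. For Dusp16 this was its brightest probe (-0.78 ± 0.11). The others gave 0.14 ± 0.27 and -0.17 ± 0.42, neither called, and the mean of the 3 gave -0.27 (adjusted p = 0.201). The Dusp1 difference was -2.59 ± 0.20 at 1 h, -3.36 ± 0.20 at 3 h and -2.97 ± 0.20 at 5 h, and within the slide run that held both lines it was -2.85, -3.52 and -3.36. The Dusp2 difference was -0.38 ± 0.11, -1.33 ± 0.11 and -2.31 ± 0.11 at these times. Its call at 1 h was lost with array-median scaling (-0.50, adjusted p = 0.306).

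Dusp6 was higher in Tbc1d23-labelled cells at every time, by 5.08 ± 0.35 at 1 h, 3.77 ± 0.35 at 3 h and 3.13 ± 0.35 at 5 h, and by 4.55, 3.20 and 2.65 within that slide run. Dusp4 was higher by 0.57 ± 0.13, 1.86 ± 0.13 and 1.44 ± 0.13 with its brighter probe and by 2.29 ± 0.12, 3.53 ± 0.12 and 2.93 ± 0.12 with the other. The call of the brighter probe at 1 h was lost with array-median scaling (0.46, adjusted p = 0.366) and with the deposited values (0.43, adjusted p = 0.0917). Dusp14 was higher by 2.50 ± 0.50, 1.78 ± 0.50 and 3.37 ± 0.50. Without the dim CAT array at 5 h the last of these was 2.69. Within the slide run its values were 1.54 (adjusted p = 0.116), 1.17 (adjusted p = 0.207) and 2.81 (adjusted p = 0.00798). Dusp8 was lower at 1 h (-1.27 ± 0.32, adjusted p = 0.00301), a call lost within the slide run (-1.34, adjusted p = 0.0977), and higher at 5 h by at least 1.46-fold, also lost there (adjusted p = 0.114). Dusp7 was called higher at 1 h (0.98 ± 0.16, adjusted p = 6.39e-05), a call lost with array-median scaling (0.86, adjusted p = 0.0846). At 5 h its difference was -0.33 ± 0.16 (adjusted p = 0.0903), called without Tbc1d23-labelled replicate 3 (-0.43, adjusted p = 0.0481).

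**Figure D4:**
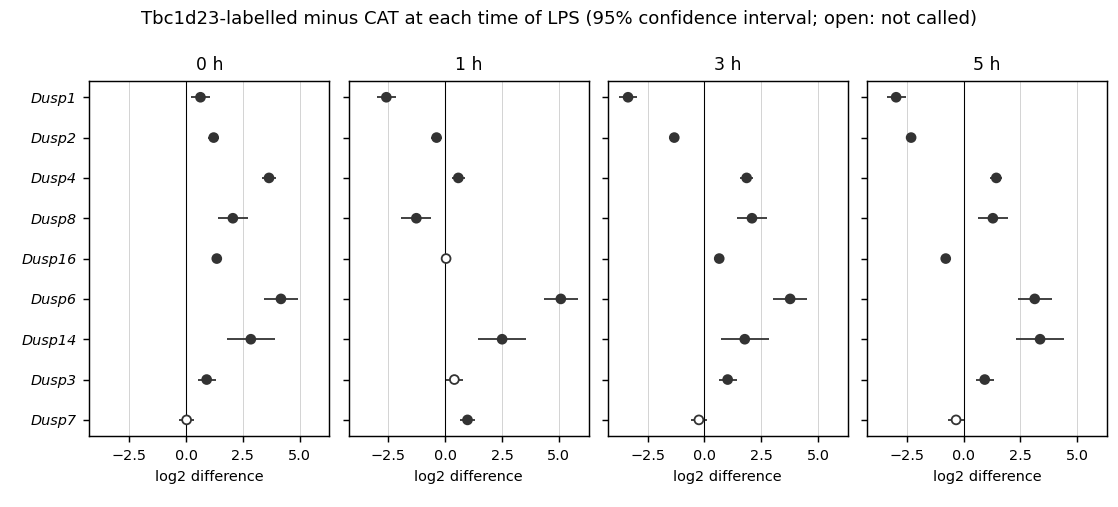
Log2 difference of Tbc1d23-labelled minus CAT cells (horizontal axes) for each phosphatase at 0, 1, 3 and 5 h of LPS, with 95% confidence intervals and open points where the difference was not called. Dusp1 passes from 0.63 at 0 h to -2.59 at 1 h and Dusp2 from 1.21 to -0.38, while Dusp6 stays between 3.13 and 5.08.

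The response to LPS itself differed between the lines for several phosphatases, by the interaction of line and time. At 1 h 6 of 9 interactions were called, against 2.39% of all gene names. Of these 5 were lower in Tbc1d23-labelled cells (Dusp1, Dusp2, Dusp4, Dusp8 and Dusp16), where 1.76% of all gene names were lower, and Dusp7 was higher. At 3 h 4 of 9 were called, all lower (Dusp1, Dusp2, Dusp4 and Dusp16), against 16.6% called and 8.36% lower. The same 4 genes were called lower at 5 h, against 23.2% called and 10.6% lower. For Dusp1 the interaction was -3.23 ± 0.28 at 1 h (adjusted p = 3.62e-07), -3.99 ± 0.28 at 3 h and -3.60 ± 0.28 at 5 h on the log2 scale.

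For Dusp2 the interaction was -1.60 ± 0.15, -2.54 ± 0.15 and -3.52 ± 0.15 at 1, 3 and 5 h. Dusp4 gave -3.07 ± 0.19, -1.79 ± 0.19 and -2.21 ± 0.19, and its second probe -2.68 ± 0.17, -1.44 ± 0.17 and -2.05 ± 0.17, each with a higher resting level to start from in Tbc1d23-labelled cells. Dusp16 gave -1.31 ± 0.15, -0.70 ± 0.15 and -2.13 ± 0.15. Its second probe was not called at 1 h (-0.57 ± 0.38, adjusted p = 0.889), and the probe at chr6:134668003-134668062 was called at 5 h (-2.02 ± 0.59, adjusted p = 0.0173) but not at 1 or 3 h. For Dusp8 the interaction at 1 h was -3.33 ± 0.45 (adjusted p = 0.000106). Both resting groups were below background, so its size is not a measured one, and with normexp it was -0.92. Within the slide run that held both lines it was -3.52 (adjusted p = 0.0776).

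Dusp7 was the exception in direction at 1 h, with an interaction of 0.96 ± 0.22 (adjusted p = 0.0245). That call was lost without any 1 of 7 arrays, with values from 0.83 to 0.95 and adjusted p from 0.0534 to 0.088: CAT 0 h replicate 1 or 2, CAT 1 h replicate 1 or 2, Tbc1d23-labelled 0 h replicate 1 or 3, and Tbc1d23-labelled 1 h replicate 1. It was also lost within the slide run (0.77, adjusted p = 0.381). For Dusp6 the interaction was 0.91 ± 0.50 at 1 h (adjusted p = 0.745) and -1.04 ± 0.50 at 5 h (adjusted p = 0.158), and with the slide as a block both were called (adjusted p = 0.0364 and 0.00302). For Dusp14 at 3 h it was -1.07 ± 0.71 (adjusted p = 0.414), called with the block (adjusted p = 0.0432). For Dusp3 no interaction was called, with -0.50 ± 0.27 at 1 h (95% confidence interval from -1.06 to 0.06).

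Array-median scaling moved the median interaction at 1 h over all gene names from 0.00 to 0.42 and left 3 of the 6 calls (Dusp1, Dusp4 and Dusp8). With it Dusp2 gave -1.17 (adjusted p = 0.686), Dusp16 -0.89 (adjusted p = 0.744) and Dusp7 1.38 (adjusted p = 0.501). At 3 h 2 of 4 calls were left (Dusp1 and Dusp2) and at 5 h all 4. Within the slide run that held both lines the Dusp16 interaction at 3 h was not called (-0.66, adjusted p = 0.107). Over all gene names, 11 of 73 interactions called at 1 h were higher with array-median scaling, in place of 96 of 365, and 735 of 1117 at 3 h, in place of 1261 of 2540. For LPS at 1 h, that scaling gave 320 higher of 429 called in CAT cells, in place of 556 of 1160, and 125 of 150 in Tbc1d23-labelled cells, in place of 128 of 253.

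The orders of the 8 group levels set the phosphatases apart. For Dusp1 the order from the top was CAT at 1, 3 and 5 h, Tbc1d23-labelled cells at 1, 3, 5 and 0 h, and CAT at 0 h. Neighbours in it overlapped between CAT at 5 h and Tbc1d23-labelled cells at 1 h, and among Tbc1d23-labelled cells at 3, 5 and 0 h. For Dusp6 the 4 Tbc1d23-labelled groups came first and overlapped one another, and CAT at 1 h came last, apart from CAT at 0 h. For Dusp4 Tbc1d23-labelled cells at 3 h came first, apart from the rest, and CAT at 0 h last. For Dusp7 both 0 h groups came first and overlapped, and the last 5 groups, each overlapping the next, were the LPS groups other than Tbc1d23-labelled cells at 1 h.

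Across the arrays the profile of Dusp1 was most like those of Tnfaip3 (Pearson r = 0.962), Errfi1 (0.950) and Zfp36 (0.944), by the correlation of log2 values over 24 arrays among 12185 other gene symbols. Arrays share lines, times and slides, so these values are descriptions. The profile most like that of Dusp2 was Nfkbiz (0.983), followed by Tnf (0.982) and Junb (0.971). Tnfaip3 and Nfkbiz encode regulators of NF-kB signalling, Zfp36 an mRNA decay factor, and Tnf a cytokine. Nearest to Dusp16 were Ptgs2 (0.943), Slc20a1 (0.936) and Rab20 (0.932), and nearest to Dusp8 were Ppp1r15a (0.880), Rela (0.871) and Gem (0.865). Dusp4, over 23 arrays, was nearest to Ifrd1 (0.947), Nabp1 (0.940) and Cited2 (0.935).

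The remaining phosphatases had other neighbours. For Dusp6 they were Erp44 (0.986), Ikbkg (0.982) and Dnajb11 (0.980), for Dusp14 Usp33 (0.955) and Gramd4 (0.944), and for Dusp3 Lat2 (0.939), Arl6ip6 (0.938) and Terf1 (0.932). Dusp7 was less close to its nearest genes, Fbxo22 (0.864), Riox1 (0.734) and Etaa1 (0.729). Among the phosphatases the highest correlation was that of Dusp1 with Dusp2 (0.908), followed by Dusp3 with Dusp14 (0.813) and Dusp6 with Dusp14 (0.766). The lowest was that of Dusp7 with Dusp16 (-0.671), and Dusp1 with Dusp6 gave -0.586.

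The kinases that these enzymes act on were also measured. None of the 12 MAP kinase genes tested, of 14 listed, was called in CAT cells at 1 h. Of 25 upstream kinases and their partners 2 were higher, Map3k8 (1.02 ± 0.23), the kinase that links TLR signalling to ERK, and Map2k3 (0.40 ± 0.10), which activates p38. Another 2 were lower, Tab1 (-0.95 ± 0.14), a partner of TAK1, and Map3k14 (-0.30 ± 0.08), the last named after its value was seen. None of the 10 kinases activated by MAP kinases was called then. These counts stand against 7.58% of all gene names called.

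Of 13 other phosphatases of the family tested, of 19 listed, Dusp10 was higher in CAT cells at 1 h (0.81 ± 0.17, adjusted p = 0.00461) and Ptpn7 lower (-0.42 ± 0.12, adjusted p = 0.0396), and none was called in Tbc1d23-labelled cells. DUSP10 acts on JNK and p38, and PTPN7 on ERK and p38. At 0 h 4 of the 13 were higher in Tbc1d23-labelled cells and 6 lower, where 45.3% of all gene names were called and 25.1% were higher. The largest differences were those of Ptpn5 (1.85 ± 0.22), Dusp9 (-1.45 ± 0.31) and Dusp28 (-1.37 ± 0.17), and the median of the list was -0.47, against 1.35 for the 9 phosphatases. For Dusp9 not all resting arrays were well above background.

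Genes known as feedback inhibitors or targets of ERK included several early response genes. In CAT cells at 1 h 5 of 12 tested, of 15 listed, were higher and 2 lower, with Phlda1 (7.40 ± 0.15), Egr1 (6.41 ± 0.26) and Fosl1 (4.08 ± 0.13) the largest, against 3.63% of all gene names called higher. Phlda1 is a target of ERK signalling, and Egr1 and Fosl1 encode early transcription factors. The same number, 5 of 12, was higher in Tbc1d23-labelled cells at 1 h, against 0.837%. At rest 8 of 12 were higher in Tbc1d23-labelled cells and 1 lower, against 45.3% of all gene names called and 25.1% called higher. The largest differences were those of Ier3 (4.28 ± 0.22), Fosl1 (3.46 ± 0.13) and Phlda1 (1.82 ± 0.15). Of the 12 MAP kinase genes tested 4 were higher and 2 lower at rest. The largest differences were those of Mapk3 (-1.95 ± 0.17), which encodes ERK1, Mapk13 (1.66 ± 0.25), a p38 isoform, and Mapk7 (1.14 ± 0.20), which encodes ERK5. Of the 25 upstream kinases 8 were higher and 6 lower at rest, with Map2k6 (-2.66 ± 0.34), Map3k3 (1.06 ± 0.31) and Map2k7 (-0.97 ± 0.29) the largest. Both kinase counts stand against 45.3% of all gene names called, and neither is read as a result about its list. Not all resting arrays were well above background for Map2k6.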

How the data were processed

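Spot intensity comes from the deposited scanner output, which the authors made with Feature Extraction (version 10.7.1.1 in the file headers). It lists probe positions on mm9. The authors also deposited a table of values per probe on a log2 scale, as judged from its values, which ranked almost as the scanner signal (Spearman correlation 0.9997 to 0.9999 per array) and served as an alternative. The submitters' processing notes also name RMA and Partek, without roles.

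Outlier spots were left out (0.113 to 0.406% per array) and none was saturated. The processed signal was taken to log2 minus the array's 75th percentile (157 to 363 signal units). Surrogates stood in for low signals at 12.5 to 42.1% of all spots other than controls, per array, and the number of arrays limits the precision. A probe was kept where some group had it well above background in all 3 replicates (21960 of 41174), and the brightest probe stood for each gene name. Through RefSeq accessions 25253 probes had a current symbol. A model of 8 group means with 1 spread was fitted in R 4.3.3 by limma 3.58.1, using lmFit and eBayes. P-values were adjusted by Benjamini-Hochberg within each of 17 contrasts, and values after ± are standard errors with 3 arrays a group. The smallest p of an exact 3 against 3 permutation is 0.1. On simulated data the fit was tested with known changes.

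Within a line, arrays of the same replicate number shared a slide and deviated together (correlation 0.183 to 0.825), so the slide was used as a block in an alternative fit. Across lines the same numbers did not (-0.434 to 0.0312). Slides came in 2 runs of serial numbers, with Tbc1d23-labelled replicates 1 and 2 in one and the rest in the other.

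All 9 measured members are described. Of each pathway list, only the counts and the 3 largest called changes at CAT 1 h and between resting lines are named, and the 3 nearest symbols of each member by correlation, of which 1 for Dusp14 is not reported here. The members and lists were chosen with earlier results of these data known. Sequences are from RefSeq (GRCm38.p6).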

Additional observations from a re-analysis of the deposited data

Results flagged for a closer look

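The change with LPS differed between the lines, by the interaction term of the limma fit, for the following phosphatases (log2, Tbc1d23-labelled minus CAT). At 1 h it was -3.23 for Dusp1, -1.60 for Dusp2, -3.07 for Dusp4, -3.33 for Dusp8, -1.31 for Dusp16 and 0.96 for Dusp7. For Dusp8 neither line was above background at 0 h, so the size is not a measured one. It was -0.92 with normexp, and its call was lost within the slide run that held both lines, as was that of Dusp7. At 3 h it was -3.99 for Dusp1, -2.54 for Dusp2, -1.79 for Dusp4 and -0.70 for Dusp16. At 5 h it was -3.60 for Dusp1, -3.52 for Dusp2, -2.21 for Dusp4 and -2.13 for Dusp16.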

How the results depend on the processing

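Of 5321 refits of the 9 phosphatases in 17 contrasts under 35 alternatives, 5182 kept their direction and their side of the threshold. Of the 5182, 3647 came from leaving out 1 array. Where that array was in no group of the contrast, the difference could not change, so the total does not measure stability. Array-median scaling on its own kept 124. With each slide as a block, the members called rose from 2 to 5 for CAT cells from 3 to 5 h, and all gene names called from 2385 to 4482. For Tbc1d23-labelled cells at 5 h they rose from 3 to 6, and all gene names called from 970 to 2377. Between the lines the block was the replicate number, although the lines lay on different slides and the same numbers did not deviate together. With that block Dusp3 was called between the lines at 1 h (0.40, adjusted p = 0.0207), which is thus not a call from a shared slide. Beside the calls named above these blocks changed no other call. The slide as a random block gave 5 for CAT cells from 3 to 5 h and 6 for Tbc1d23-labelled cells at 5 h (4327 and 2381 of all gene names). The slide run as a block gave 4 for CAT cells from 3 to 5 h (3314 of all gene names). Array-median scaling lost 29 single calls and gave 1 of 9 there, 1 for Tbc1d23-labelled cells at 5 h, 2 from 1 to 3 h and 0 from 3 to 5 h in that line, 4 between the lines at 0 h and 4 at 1 h, 3 interactions at 1 h and 2 at 3 h. Within the slide run that held both lines, Tbc1d23-labelled cells had 2 at 1 h, 2 from 1 to 3 h and 0 from 3 to 5 h, where each group has 1 array. For that count of 0, the fit of all arrays called 3. Normexp background correction, with the median parameters of the other arrays on 6 arrays where its fit collapsed, was chosen after seeing the data. It gave 5 for CAT cells at 5 h and 1 from 3 to 5 h, as did the mean of all probes for the latter. It turned Dusp8 at 5 h between the lines from 1.29 to -0.045, and the mean of probes turned Dusp16 from 1 to 3 h in Tbc1d23-labelled cells from 0.69 to -0.36. Leaving out 1 array in turn gave 7 to 7 members for CAT cells at 1 h, 6 to 6 at 3 h, 7 to 8 at 5 h, 6 to 6 from 1 to 3 h and 2 to 3 from 3 to 5 h. In Tbc1d23-labelled cells it gave 4 to 4, 5 to 5, 2 to 3, 5 to 5 and 3 to 4. Between the lines it gave 7 to 8, 7 to 7, 8 to 8 and 8 to 9 at 0, 1, 3 and 5 h, and for the interactions 5 to 6, 4 to 4 and 4 to 4. For a dim probe such as that of Dusp8, signal over background limits what a difference can show. The cause of these changes was not tested.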

Other observations

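A probe without a gene name in the files, at chr2:127162582-127162641 (mm9), is described there as dual specificity phosphatase 2. It lies near the named Dusp2 probe and was not among the members by name. Its group means were -2.22, 3.80, 2.42 and 2.86 in CAT cells and -1.52, 2.45, 0.20 and -0.34 in Tbc1d23-labelled cells at 0, 1, 3 and 5 h. The difference between the lines was 0.71 ± 0.15 at 0 h (adjusted p = 0.000677), -1.35 ± 0.15 at 1 h, -2.22 ± 0.15 at 3 h and -3.20 ± 0.15 at 5 h. Its interactions were -2.06 ± 0.21, -2.93 ± 0.21 and -3.90 ± 0.21, against -1.60, -2.54 and -3.52 for the named Dusp2 probe.

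Another unnamed probe, at chrX:70885490-70885549 (mm9), has a description that names dual specificity phosphatase 9. It was lower in Tbc1d23-labelled than in CAT cells at 0 h (-0.66 ± 0.20, adjusted p = 0.012) and at 5 h (-0.88 ± 0.20, adjusted p = 0.00124). No change with LPS was called for it in either line at 1, 3 or 5 h. These probes were looked at after the values of the members were known.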
